A study of Rattus norvegicus with 36 samples.

Results

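Removal of 1 further base from the 3′ end of a miR-125b mimic was compared in H9C2 cells, a rat cardiac myoblast line, kept in normoxia. The comparison set 3 RNA-seq libraries of cells transfected with Trim AGU, the mimic that lacks A, G and U, against 3 libraries of cells transfected with Trim AG, the mimic that lacks A and G. These are 6 of the 36 samples in the series, which gave 12 groups of mimic and oxygen. The samples were taken by their labels, and the comparison was chosen with earlier results of these data known. Both groups received 25 nmol/L of mimic at the same density and neither was made hypoxic, so they share the cell line, the transfection and the oxygen. By the paper's account of the trimmed mimics, which the labels only number, the groups differ in 1 terminal base. Levels with Trim A in normoxia and the same pair of mimics under hypoxia are set beside these. The other groups (Plus A, the full-length form and mimic control) enter only an alternative fit, except mimic control in normoxia, which was not analysed here. H9C2 is a single immortalised line, and nothing in the labels says that the replicates were separate cultures, so the p-values measure the spread between libraries, which may be technical. In bulk RNA a lower count can come from fewer cells of a type or from less RNA per cell, and these cannot be told apart.

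A microRNA guides Argonaute to mRNAs that pair with its seed, bases 2 to 8 from the 5′ end, and the mRNAs are then degraded or translated less. IsomiRs that end at different 3′ bases keep the seed, while their 3′ end, which is held by Argonaute and can be tailed or trimmed, changes. miR-125b is abundant in the heart and is known for targeting pro-apoptotic mRNAs. The sequences below show what the comparison turns on: the seed in capitals is identical, and the mimics differ only in where the 3′ end stops. The mature rno-miR-125b-5p sequence was taken from RefSeq (GRCr8, chr11:29732588-29732609, plus strand), and the trimmed forms were derived by removing the last 1, 2 or 3 bases. The trimmed bases are named from the 3′ end inwards.
miR-125b: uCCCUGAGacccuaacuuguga
Trim A: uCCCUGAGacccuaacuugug
Trim AG: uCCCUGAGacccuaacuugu
Trim AGU: uCCCUGAGacccuaacuug
Full-length miR-125b has 22 bases, Trim AG has 20 and ends in U, and Trim AGU has 19 and ends in G. The passenger strands of the mimics were not analysed here.

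The 6 libraries held 28690101 to 30547343 counts, so depth was alike between the groups. Genes with at least 1 count numbered 18917 to 19188 with Trim AG and 18342 to 18738 with Trim AGU, ranges that did not overlap. Mitochondrial transcripts took 3.52% to 3.66% of counts with Trim AG and 3.15% to 4.16% with Trim AGU. Libraries were separated by a root mean square distance of 0.418 to 0.461 in log2 CPM (CPM is the share of a library's counts, scaled to 1000000) within Trim AG, 0.453 to 0.542 within Trim AGU and 0.494 to 0.605 between the groups, so the between-group distances overlapped those within Trim AGU. The myoblast markers, by level mostly Vim, summed to between 3910 and 4009 CPM with Trim AG and between 4158 and 4367 CPM with Trim AGU. Among them Myod1, the transcription factor that commits cells to the muscle lineage, was at 146, 126 and 141 CPM and 137, 119.6 and 125 CPM, and Myf5 had no count. Desmin (Des), the intermediate filament of muscle, was low at 4.03, 4.98 and 4.26 CPM with Trim AG and 3.74, 3.45 and 3.14 CPM with Trim AGU. Of the 9 myoblast markers tested, 6 had a log2 fold change of Trim AGU over Trim AG above 0 and 3 below. Itga7 (0.56, adjusted p = 0.0106 by edgeR) and Ncam1 (0.44, 0.0122) were higher with Trim AGU, and Cdh15 (-0.29, 0.0338) was lower, each by less than 1.5-fold. Cardiomyocyte markers summed to 47.3 to 69.0 CPM and 52.7 to 68.6 CPM, with Tbx5 at 0 and the cardiac myosin Myh6 under 0.5 CPM in every library. Tnnt2, the cardiac troponin T, was the most abundant of them, at 22.2, 40.2 and 25.8 CPM with Trim AG and 19.99, 36.8 and 23.7 CPM with Trim AGU, and overlapped between the groups. The fibroblast-type genes summed to 22364 to 25488 CPM and 25108 to 28507 CPM, mostly the collagens Col1a1 and Col3a1. Endothelial markers (18.9 to 26.3 CPM in all, mostly Egfl7), immune markers (1.72 to 2.92 CPM) and epithelial markers (36.6 to 49.8 CPM, nearly all Krt8) were low in both groups, with Adgre1 at 0. Of the markers tested, 0 of 9 myoblast, 0 of 9 cardiomyocyte, 0 of 8 fibroblast, 0 of 2 endothelial, 0 of 2 immune and 0 of 1 epithelial genes were called by edgeR, as defined below. At an unadjusted p under 0.05, which 24.1% of all genes tested reached, the counts were 4, 2, 2, 0, 0 and 0, and DESeq2 (3.24% of its genes called) called 0 in each list. The median log2 fold changes of these lists were 0.25, -0.09, 0.17, -0.09, 0.07 and 0.20.

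In normoxia, 419 of 14768 genes tested (2.84%) differed between Trim AGU and Trim AG by at least 1.5-fold at an adjusted p below 0.05 in edgeR's quasi-likelihood test, the rule for a call throughout. Of these, 232 genes (1.57%) were higher and 187 genes (1.27%) were lower with Trim AGU. The changes were mostly moderate: the median called gene differed 1.72-fold, 114 called genes differed at least 2-fold and 17 at least 4-fold. Without a fold threshold 1162 genes passed, 751 higher and 411 lower. The median log2 fold change of all genes tested was 0.00056. The libraries of the 2 groups did not overlap in 416 of the 419 called genes, against 31.2% of all genes tested, a separation that the rule for a call itself favours. The genes higher with Trim AGU were more abundant, with a median mean level of 23.0 CPM, and those lower had a median of 5.93 CPM, beside 19.9 CPM for all genes tested. The called genes held 366 protein-coding genes, and 39 carried no gene name.

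**Figure D1:**
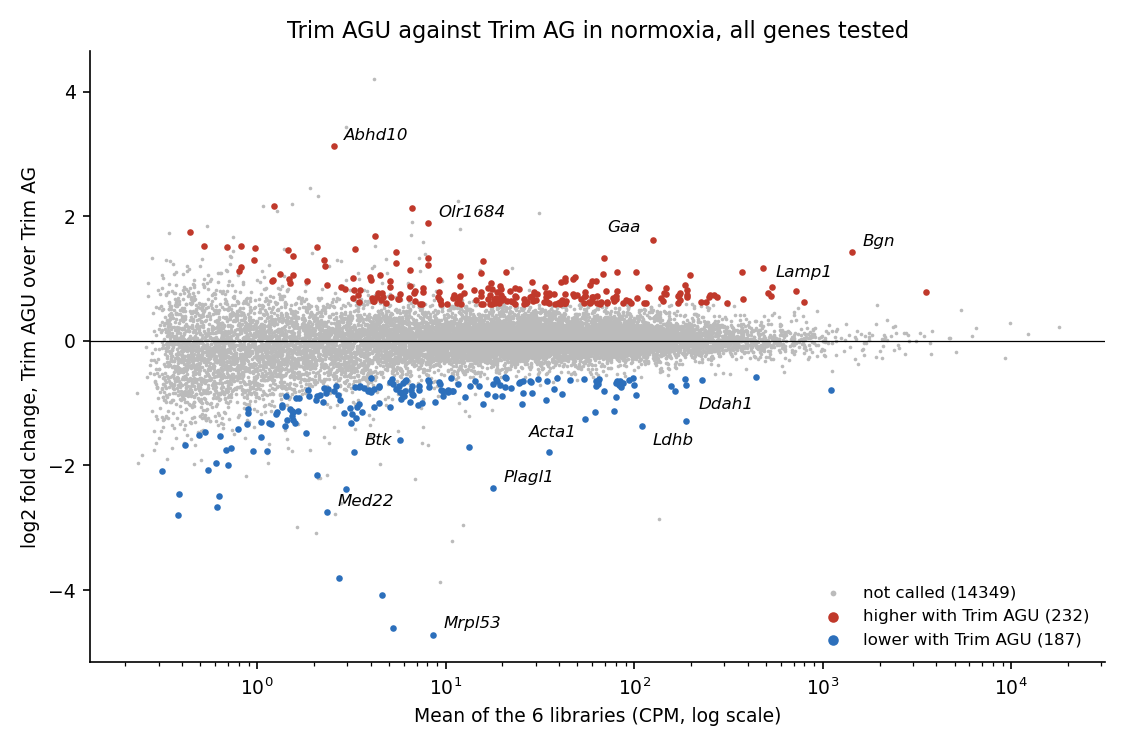
Mean level of each gene over the 6 libraries (x axis, CPM on a log scale) against the log2 fold change of Trim AGU over Trim AG in normoxia (y axis), for the 14768 genes tested, with the 232 called higher in red and the 187 called lower in blue. Most called genes lie between 1.5-fold and 2-fold on either side of 0, and the larger decreases, such as Mrpl53 and Med22, are of genes at a low mean level.

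The 5 genes with the smallest p-values at 10 CPM or more among those higher with Trim AGU were Gaa, Rab14, Mdh2, Xdh and Pea15. Gaa, the acid alpha-glucosidase that breaks down glycogen in lysosomes (chr10:108395860-108413059 in the deposited tables, whose genome build is not given in the sources used here), was at 61.2, 72.6 and 56.0 CPM in the 3 Trim AG libraries. With Trim AGU the same gene was at 198, 169.6 and 197 CPM. The groups did not overlap, and Gaa was 3.06-fold higher (log2 fold change 1.61 ± 0.11, SE, adjusted p = 0.000513 by edgeR's quasi-likelihood test, 3 against 3 libraries). Rab14, a small GTPase of the Golgi and endosomes, had 41.2, 44.6 and 43.3 CPM with Trim AG and 79.8, 86.1 and 78.9 CPM with Trim AGU. Every Trim AGU library was above every Trim AG library by close to the same factor, 1.95-fold on average (log2 fold change 0.96 ± 0.07, adjusted p = 0.000513 by edgeR).

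Mdh2, the mitochondrial malate dehydrogenase (chr12:23941448-23954431), stood at 126, 139 and 129.6 CPM against 272, 274 and 248 CPM with Trim AGU, a 2.08-fold difference (log2 fold change 1.05 ± 0.07, adjusted p = 0.000513 by edgeR). Pea15, a small phosphoprotein that binds ERK and death-domain proteins, was at 237, 265 and 219.8 CPM with Trim AG and 517, 490.3 and 504 CPM with Trim AGU. For Pea15 that was 2.16-fold higher with the shorter mimic (log2 fold change 1.11 ± 0.08, adjusted p = 0.000606 by edgeR). Xdh, the xanthine dehydrogenase of purine breakdown, rose 1.86-fold from 44.2, 40.8 and 40.0 CPM to 74.5, 77.3 and 74.2 CPM (adjusted p = 0.000606 by edgeR). These 5 genes were picked by their small p-values, so a small spread within groups beside the gap between groups follows from that choice. Each call held with any 1 library left out.

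Larger folds were found at lower levels. Abhd10, a mitochondrial thioesterase, was at 0.591, 0.453 and 0.557 CPM with Trim AG and 3.50, 6.34 and 3.86 CPM with Trim AGU, 8.74-fold higher (log2 fold change 3.13 ± 0.29, adjusted p = 0.0012 by edgeR). The name Abhd10 is carried by 2 identifiers, so its reads may be shared with a near-identical copy. Under hypoxia the Trim AGU libraries disagreed on Abhd10, at 0.657, 0.690 and 7.81 CPM, so its level can vary widely between libraries of 1 group. Olr1684, an olfactory receptor gene, went from 2.92, 4.22 and 3.34 CPM to 10.8, 14.6 and 12.3 CPM (log2 fold change 1.89 ± 0.18, adjusted p = 0.00124 by edgeR), and Mettl5, the ribosomal RNA methyltransferase, from 4.07, 5.40 and 4.52 CPM to 10.6, 13.5 and 10.2 CPM (log2 fold change 1.33 ± 0.16, adjusted p = 0.00378 by edgeR). Each of these calls held without any 1 library. The cell adhesion gene Negr1 (log2 fold change 1.68, adjusted p = 0.0136), the calcitonin receptor-like receptor Calcrl (1.5, 0.0134), Tprkb, a subunit of the tRNA-modifying KEOPS complex (1.48, 0.047), the glycosyltransferase Mgat3 (1.36, 0.0139) and Cox7b2, a subunit of cytochrome c oxidase (1.29, 0.0281), were also called higher by edgeR. Their calls were less firm: they were kept in 3 of 6, 3 of 6, 1 of 6, 3 of 6 and 2 of 6 fits that each left out 1 library. For all 5 the adjusted p was highest without Trim AG replicate 3, where it was 0.0697, 0.0617, 0.128, 0.0857 and 0.132. The name Tprkb, like Abhd10, is carried by 2 identifiers.

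Among the genes lower with Trim AGU, Acta1, Ldhb, Ddah1, Gng10 and Pawr had the smallest p-values at 10 CPM or more. Ldhb, the lactate dehydrogenase subunit that favours the oxidation of lactate (chr4:176701983-176720012), was at 159, 159.7 and 159 CPM with Trim AG and at 58.1, 69.0 and 53 CPM with Trim AGU. The Trim AG libraries were almost identical to each other, and Ldhb was 2.58-fold lower with Trim AGU (log2 fold change -1.37 ± 0.10, adjusted p = 0.000513 by edgeR's quasi-likelihood test). Ddah1, which degrades asymmetric dimethylarginine, an inhibitor of nitric oxide synthases, was at 271, 255 and 281 CPM and 99.1, 126 and 94.8 CPM. That was 2.45-fold lower (log2 fold change -1.29 ± 0.11, adjusted p = 0.0011 by edgeR). Acta1, the alpha-actin of skeletal muscle thin filaments (chr19:56674074-56677084), was at 81.7, 90.0 and 86.2 CPM with Trim AG and at 36.0, 41.4 and 36.6 CPM with Trim AGU, 2.20-fold lower (log2 fold change -1.14 ± 0.08, adjusted p = 0.000513 by edgeR).

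Pawr, the pro-apoptotic protein PAR-4, fell from 136, 129 and 135 CPM to 69.7, 77.3 and 66.1 CPM (log2 fold change -0.87 ± 0.07, adjusted p = 0.0011 by edgeR). Gng10, a gamma subunit of heterotrimeric G proteins, fell from 111, 104 and 106 CPM to 63.7, 62.2 and 60.5 CPM (log2 fold change -0.74 ± 0.06, adjusted p = 0.0011 by edgeR). Plagl1, an imprinted zinc-finger transcription factor (chr1:7252349-7259035), showed the largest decrease of any named gene above 10 CPM, with 29.8, 29.2 and 31.1 CPM against 3.39, 8.41 and 5.25 CPM. It was 5.13-fold lower with Trim AGU (log2 fold change -2.36 ± 0.25, adjusted p = 0.00201 by edgeR). Each of these 6 calls held without any 1 library.

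The remaining large decreases were in genes at a few CPM. Btk, the Bruton tyrosine kinase, was at 4.83, 4.29 and 6.19 CPM and 1.70, 1.21 and 1.42 CPM (log2 fold change -1.78 ± 0.21, adjusted p = 0.0034 by edgeR), and Shroom3, an actin-binding regulator of cell shape, was at 2.40, 2.40 and 3.27 CPM and 0.935, 0.896 and 0.991 CPM (log2 fold change -1.47 ± 0.21, adjusted p = 0.00673 by edgeR). Both calls held without any 1 library. Plg, the precursor of plasmin, was at 1.63, 1.78 and 1.87 CPM and 0.346, 0.517 and 0.628 CPM (log2 fold change -1.77 ± 0.27, adjusted p = 0.00757 by edgeR), and lost its call only without Trim AG replicate 3 (adjusted p = 0.0541). Of the 5 largest decreases among the named genes at 1 CPM or more, 4 rested on libraries that disagreed within Trim AG. Mrpl53, a protein of the mitochondrial ribosome, was at 1.18, 24.3 and 24.4 CPM with Trim AG and 0.416, 0.690 and 0.727 CPM with Trim AGU (log2 fold change -4.71 ± 0.97, adjusted p = 0.0239 by edgeR). Trim AG replicate 1 lay close to the Trim AGU libraries, and the 3 Trim A libraries were split in the same manner, at 24.1, 0.806 and 1.07 CPM. Med22, a Mediator subunit, was at 1.04, 7.15 and 4.12 CPM and 0.762, 0.172 and 0.826 CPM (adjusted p = 0.0484 by edgeR), and its name is carried by 2 identifiers. Uchl3, a deubiquitinase, was at 5.87, 6.87 and 2.16 CPM and 0.242, 1.45 and 1.09 CPM (adjusted p = 0.0401 by edgeR). Trmt61a, a tRNA methyltransferase, was at 1.39, 4.25 and 4.65 CPM and 0.762, 0.586 and 0.892 CPM (adjusted p = 0.0227 by edgeR). These 4 calls were kept in 2 of 6, 1 of 6, 1 of 6 and 2 of 6 fits that left out 1 library, and the highest adjusted p was 0.0931 without Trim AGU replicate 3, 0.148 without Trim AG replicate 3, 0.129 without Trim AG replicate 1 and 0.104 without Trim AG replicate 3.

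Levels with Trim A, the mimic that lacks only the terminal A, were set beside these genes as a description, without a test. For Gaa the Trim A libraries were at 229, 219.6 and 219.8 CPM, for Mdh2 at 341, 332 and 326 CPM and for Pea15 at 580.1, 560.0 and 576 CPM. In these genes the Trim AG libraries were the low ones, and the Trim AGU libraries lay between Trim AG and Trim A. For Ldhb the Trim A libraries were at 173, 171 and 166 CPM, for Plagl1 at 25.9, 22.1 and 25.1 CPM and for Pawr at 138, 125 and 130.0 CPM. Here the Trim AGU libraries were the low ones, and Trim AG lay near Trim A. For Acta1, with Trim A at 39.9, 40.8 and 39.1 CPM, the Trim AG libraries were the high ones and Trim AGU lay near Trim A. The genes separating Trim AGU from Trim AG thus differed in which of the mimics stood away from Trim A.

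**Figure D2:**
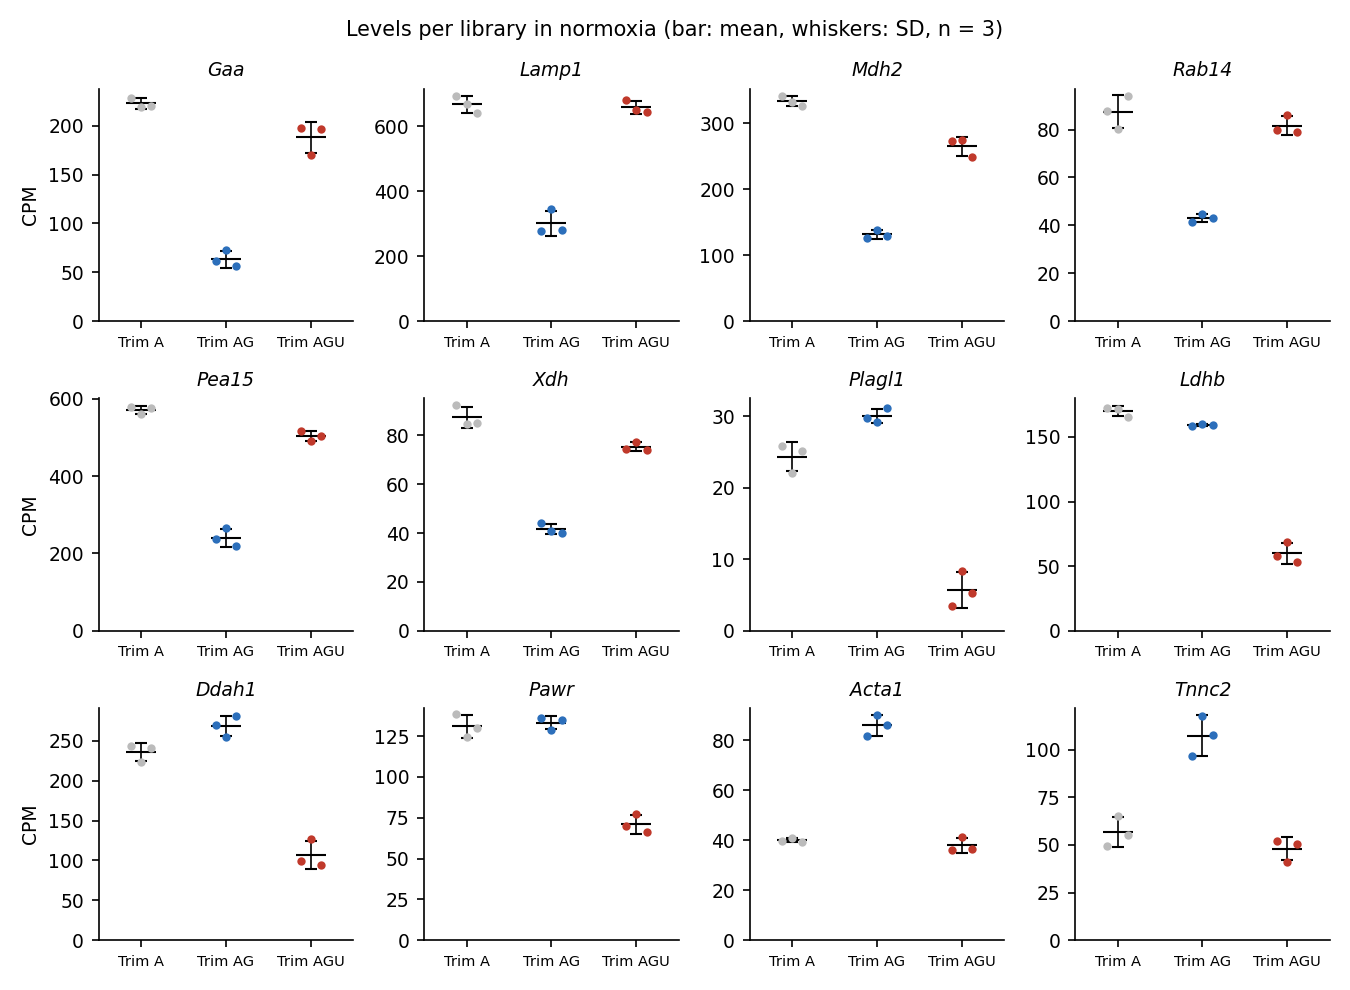
CPM of 12 genes (y axis, from 0) in each normoxia library with Trim A, Trim AG or Trim AGU (points), with the mean (bar) and SD (whiskers) of 3 libraries. Trim AG is the low group for Gaa, Lamp1, Mdh2, Rab14, Pea15 and Xdh, Trim AGU is the low group for Plagl1, Ldhb, Ddah1 and Pawr, and Trim AG is the high group for Acta1 and Tnnc2.

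Genes of the lysosome, a list put together after these values were seen, had 5 of 40 members called higher and 1 called lower, with a median log2 fold change of 0.24 and 37 of 40 above 0. That was 15% called, beside 2.84% of all genes tested, of which 7401 of 14768 were above 0. Because the list followed the values, the count is a description only. Besides Gaa, Lamp1, the main glycoprotein of the lysosomal membrane, was at 278, 346 and 282 CPM with Trim AG and 679.7, 650.0 and 645 CPM with Trim AGU (log2 fold change 1.17 ± 0.09, adjusted p = 0.0011 by edgeR). Sort1, the sorting receptor sortilin, was at 54.3, 82.4 and 61.5 CPM and 129.6, 150.2 and 137 CPM (log2 fold change 1.11 ± 0.14, adjusted p = 0.00418 by edgeR), and Gusb, the lysosomal beta-glucuronidase, at 44.5, 50.9 and 43.7 CPM and 70.4, 81.7 and 68.0 CPM (log2 fold change 0.70 ± 0.09, adjusted p = 0.00469 by edgeR). Ctsd, the protease cathepsin D, was at 245, 264 and 239.7 CPM and 364, 379.6 and 366 CPM (log2 fold change 0.61 ± 0.06, adjusted p = 0.00201 by edgeR), close to the fold threshold, and was called in 4 of 6 fits without 1 library. Among the members not called, Grn, the precursor of the lysosomal granulins, had a log2 fold change of 0.53, below the fold threshold.

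Genes of the TCA cycle and of pyruvate and lactate handling, also listed after the values were seen, moved in both directions, with 3 of 31 called higher, 3 called lower and a median log2 fold change of -0.06. That was 19.4% called, beside 2.84% of all genes tested, and is a description only. Beside Mdh2, the monocarboxylate transporter Slc16a1, which carries lactate and pyruvate, rose from 31.9, 35.0 and 30.3 CPM to 59.9, 66.9 and 60.3 CPM (log2 fold change 0.99 ± 0.08, adjusted p = 0.0011 by edgeR). Gpd1l, a glycerol-3-phosphate dehydrogenase-like gene, rose from 13.6, 14.7 and 12.2 CPM to 29.0, 28.7 and 26.6 CPM (log2 fold change 1.10 ± 0.09, adjusted p = 0.0011 by edgeR). Beside Ldhb, Idh3a, the catalytic subunit of the NAD-dependent isocitrate dehydrogenase, fell from 104, 107 and 102 CPM to 58.1, 72.4 and 55.2 CPM (log2 fold change -0.71 ± 0.10, adjusted p = 0.0059 by edgeR). Ogdhl, a relative of the 2-oxoglutarate dehydrogenase, fell from 9.17, 8.85 and 8.02 CPM to 3.60, 4.79 and 4.49 CPM (log2 fold change -0.97 ± 0.15, adjusted p = 0.00806 by edgeR). All 6 calls held without any 1 library.

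Sarcomere genes, the thick and thin filaments of striated muscle, had 0 of 27 members called higher and 3 called lower, with a median log2 fold change of -0.24 and 21 of 27 below 0. That was 11.1% called, beside 2.84% of all genes tested, of which 7367 of 14768 were below 0. Tnnc2, the calcium-binding troponin C of fast skeletal muscle, was at 96.6, 118 and 108 CPM with Trim AG and 52.2, 41.0 and 50.7 CPM with Trim AGU (log2 fold change -1.12 ± 0.11, adjusted p = 0.00152 by edgeR). Tnnt1, the slow skeletal troponin T, was at 20.7, 28.9 and 23.7 CPM and 11.3, 15.4 and 16.8 CPM (log2 fold change -0.71 ± 0.16, adjusted p = 0.0349 by edgeR), a call kept in 1 of 6 fits without 1 library (adjusted p = 0.12 without Trim AG replicate 3). With Acta1 the 3 called members are skeletal forms. Myh1, a fast skeletal myosin heavy chain, went the other way below the fold threshold, with 140.1, 129 and 125 CPM and 178, 158 and 184 CPM (log2 fold change 0.44 ± 0.08, adjusted p = 0.0146 by edgeR). Of the genes for calcium handling in the sarcoplasmic reticulum 0 of 12 were called (median log2 fold change 0.04), of muscle transcription factors 0 of 12 (-0.04), and of smooth muscle genes and targets of SRF or YAP 0 of 15 (-0.15). At an unadjusted p under 0.05 these 3 lists held 1, 2 and 9 genes (24.1% of all genes tested did), and DESeq2 called 0 in each. Closest to a call in the last list was Cnn1, the actin-binding calponin of smooth muscle, at 723, 750.4 and 745 CPM and 548, 466 and 516 CPM (log2 fold change -0.49 ± 0.08, adjusted p = 0.00805 by edgeR, below the fold threshold).

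Genes of collagens and matrix had 2 of 33 members called higher and 2 called lower (12.1% called, beside 2.84% of all genes tested), with a median log2 fold change of 0.10. Bgn, the small proteoglycan biglycan, was at 678, 1005 and 693 CPM with Trim AG and 1864, 2443 and 1896 CPM with Trim AGU, 2.68-fold higher (log2 fold change 1.42 ± 0.17, adjusted p = 0.00307 by edgeR). Lox, the lysyl oxidase that cross-links collagen and elastin, was at 379.7, 400.4 and 389 CPM and 605, 816 and 639 CPM (log2 fold change 0.86 ± 0.11, adjusted p = 0.00379 by edgeR). Both calls held without any 1 library. Fmod, the collagen-binding proteoglycan fibromodulin, was at 1.22, 1.95 and 1.54 CPM and 0.277, 0.621 and 0.661 CPM (log2 fold change -1.54 ± 0.35, adjusted p = 0.0332 by edgeR), and Col15a1, a basement membrane collagen, at 42.9, 63.1 and 36.9 CPM and 26.0, 24.1 and 31.1 CPM (log2 fold change -0.78 ± 0.19, adjusted p = 0.0427 by edgeR). These decreases were called in 1 of 6 and 0 of 6 fits without 1 library, with adjusted p = 0.122 without Trim AG replicate 3 for Fmod and adjusted p = 0.0946 without Trim AG replicate 1 for Col15a1. The abundant collagen Col1a1 was not called (log2 fold change 0.23 ± 0.06).

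The signalling lists held 0 to 3 calls each, in shares of members to be read against the 2.84% called among all genes tested. Of the TGF-beta and BMP pathway 0 of 26 members were called higher and 1 lower (3.85%, median log2 fold change 0.05), Tgfbr1, the type I TGF-beta receptor kinase, at 34.8, 40.0 and 36.9 CPM with Trim AG and 19.2, 23.2 and 18.1 CPM with Trim AGU (log2 fold change -0.84 ± 0.11, adjusted p = 0.00393 by edgeR). The groups did not overlap, and the call held without any 1 library. Of the IGF and imprinted genes 2 of 15 were higher and 1 lower (20%, median 0.10): besides Plagl1, the mRNA-binding protein Igf2bp2 had 21.3, 25.3 and 18.7 CPM and 38.5, 34.9 and 30.1 CPM (log2 fold change 0.71 ± 0.13, adjusted p = 0.0166 by edgeR). Igfbp5, which binds IGFs outside the cell, had 70.8, 87.1 and 67.9 CPM and 101, 127 and 112 CPM (log2 fold change 0.63 ± 0.11, adjusted p = 0.0146 by edgeR). These calls were kept in 4 of 6 and 2 of 6 fits without 1 library, with adjusted p = 0.0859 without Trim AG replicate 3 and adjusted p = 0.0859 without Trim AG replicate 3 respectively. Of interferon-stimulated genes 2 of 25 were higher and 1 lower (12%), and 21 of the 25 were above 0 (median 0.26). Ifih1, the RNA sensor MDA5, was at 0.973, 0.976 and 1.15 CPM and 1.87, 1.97 and 2.41 CPM (log2 fold change 1.05 ± 0.21, adjusted p = 0.0206 by edgeR), and Eif2ak2, the double-stranded RNA kinase PKR, at 43.5, 52.0 and 42.5 CPM and 59.3, 83.7 and 64.3 CPM (log2 fold change 0.63 ± 0.13, adjusted p = 0.0266 by edgeR). Oasl2, of the 2′-5′ oligoadenylate synthetase family, was at 0.556, 0.697 and 0.720 CPM with Trim AG and 0.208, 0 and 0.132 CPM with Trim AGU, under 1 CPM throughout (adjusted p = 0.0495 by edgeR). Each of these 3 calls was kept in 2 of 6 fits without 1 library, with adjusted p = 0.0968 without Trim AG replicate 1 for Ifih1, adjusted p = 0.131 without Trim AG replicate 3 for Eif2ak2 and adjusted p = 0.179 without Trim AG replicate 3 for Oasl2. Of cytokine, chemokine and NF-kB genes 0 of 15 were called by edgeR (7 at an unadjusted p under 0.05, 0 by DESeq2, median 0.10).

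The genes that the study itself measured by RT-qPCR or Western blot, most of them pro-apoptotic and reported as miR-125b targets, held 0 of 12 calls (1 at an unadjusted p under 0.05, 0 by DESeq2), with a median log2 fold change of 0.14. Among all genes tested 2.84% were called by edgeR, so 0 calls in a list this short is near that share. Bak1, a pore-forming protein of mitochondrial apoptosis, was at 52.4, 50.8 and 50.9 CPM with Trim AG and 52.7, 48.0 and 55.3 CPM with Trim AGU (log2 fold change 0.06 ± 0.07), with overlapping groups. Bcl2l11, the BH3-only protein BIM, had 23.0, 20.5 and 21.3 CPM and 21.1, 26.8 and 23.6 CPM (log2 fold change 0.18 ± 0.10), and Bmf, another BH3-only protein, 10.4, 11.2 and 11.1 CPM and 12.3, 11.6 and 13.0 CPM (log2 fold change 0.22 ± 0.10). Hif1an, the asparaginyl hydroxylase that inhibits HIF, had 19.6, 21.2 and 19 CPM and 19.3, 19.5 and 23.4 CPM, and Traf6, a ubiquitin ligase of inflammatory signalling, 9.24, 9.86 and 7.20 CPM and 8.83, 10.4 and 9.15 CPM. The closest to a call was Tp53inp2, which takes part in autophagosome formation, at 95.2, 116 and 97.3 CPM and 147, 144 and 138 CPM (log2 fold change 0.51 ± 0.09, adjusted p = 0.0128 by edgeR), below the fold threshold. The other members Tp53inp1 (0.13), Dram2 (0.20), Tnfrsf1b (0.58), Tnnt2 (-0.09) and Klf13 (-0.19) had log2 fold changes that were not called. Of the other reported miR-125b targets 1 of 17 was called (median 0.07), the transcription factor Stat3, at 86.6, 100.2 and 86.5 CPM and 129, 142 and 133 CPM (log2 fold change 0.61 ± 0.08, adjusted p = 0.00453 by edgeR). Stat3 was close to the fold threshold and was called in 3 of 6 fits without 1 library. Without Trim AG replicate 3 its adjusted p was 0.0403. Of the genes for microRNA processing, tailing and silencing 0 of 22 were called by edgeR (4 at an unadjusted p under 0.05, 0 by DESeq2, median 0.10). Of these 22, 18 had a log2 fold change above 0 and 4 below. Tnrc6b had the smallest p, with 67.9, 78.1 and 73.5 CPM and 81.1, 99.4 and 97.6 CPM (log2 fold change 0.38 ± 0.09, adjusted p = 0.039 by edgeR), below the fold threshold. Ago2, the slicing Argonaute, went the other way, with 47.9, 47.7 and 47.7 CPM and 37.6, 42.2 and 45.6 CPM.

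In the cell cycle and stress lists 0 or 1 member was called in each, which in lists this short is near the 2.84% called among all genes tested. No member was called by edgeR among 23 mitosis genes (median log2 fold change -0.03), 25 DNA replication genes (-0.05), 12 heat shock chaperone genes (-0.09) and 7 caveola genes (-0.01). At an unadjusted p under 0.05 these lists held 4, 6, 6 and 2 genes, so that 6 of the 12 heat shock chaperone genes passed against 24.1% of all genes tested, and DESeq2 called 0. Of the HIF targets 12 of 24 passed in the same way. Single members were called in the other lists. Eda2r, a p53-induced death receptor, was higher (1 of 17 p53 targets, list median -0.05, log2 fold change 0.74 ± 0.18, adjusted p = 0.0391 by edgeR), and Adm, the vasodilator peptide adrenomedullin, was lower (1 of 24 HIF targets, list median -0.16, log2 fold change -0.74 ± 0.14, adjusted p = 0.017 by edgeR). Slc7a11, the cystine transporter, was the call in both the NRF2 list (1 of 15, median 0.07) and the unfolded protein and integrated stress response list (1 of 21, median 0.02), with 14.7, 13.7 and 13.4 CPM and 21.0, 30.7 and 23.3 CPM (log2 fold change 0.88 ± 0.14, adjusted p = 0.00835 by edgeR). Of 25 sterol and fatty acid synthesis genes 1 was called lower (list median 0.11). Klf2, a zinc-finger transcription factor, was lower (1 of 18 immediate early genes, list median 0.00, log2 fold change -0.64 ± 0.11, adjusted p = 0.0118 by edgeR). The calls of Eda2r, Adm, Slc7a11 and Klf2 were kept in 1 of 6, 3 of 6, 5 of 6 and 3 of 6 fits without 1 library. The adjusted p of Eda2r was highest without Trim AG replicate 1 (0.155), and that of the other 3 without Trim AG replicate 3 (0.0981, 0.0585 and 0.0719).

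**Figure D3:**
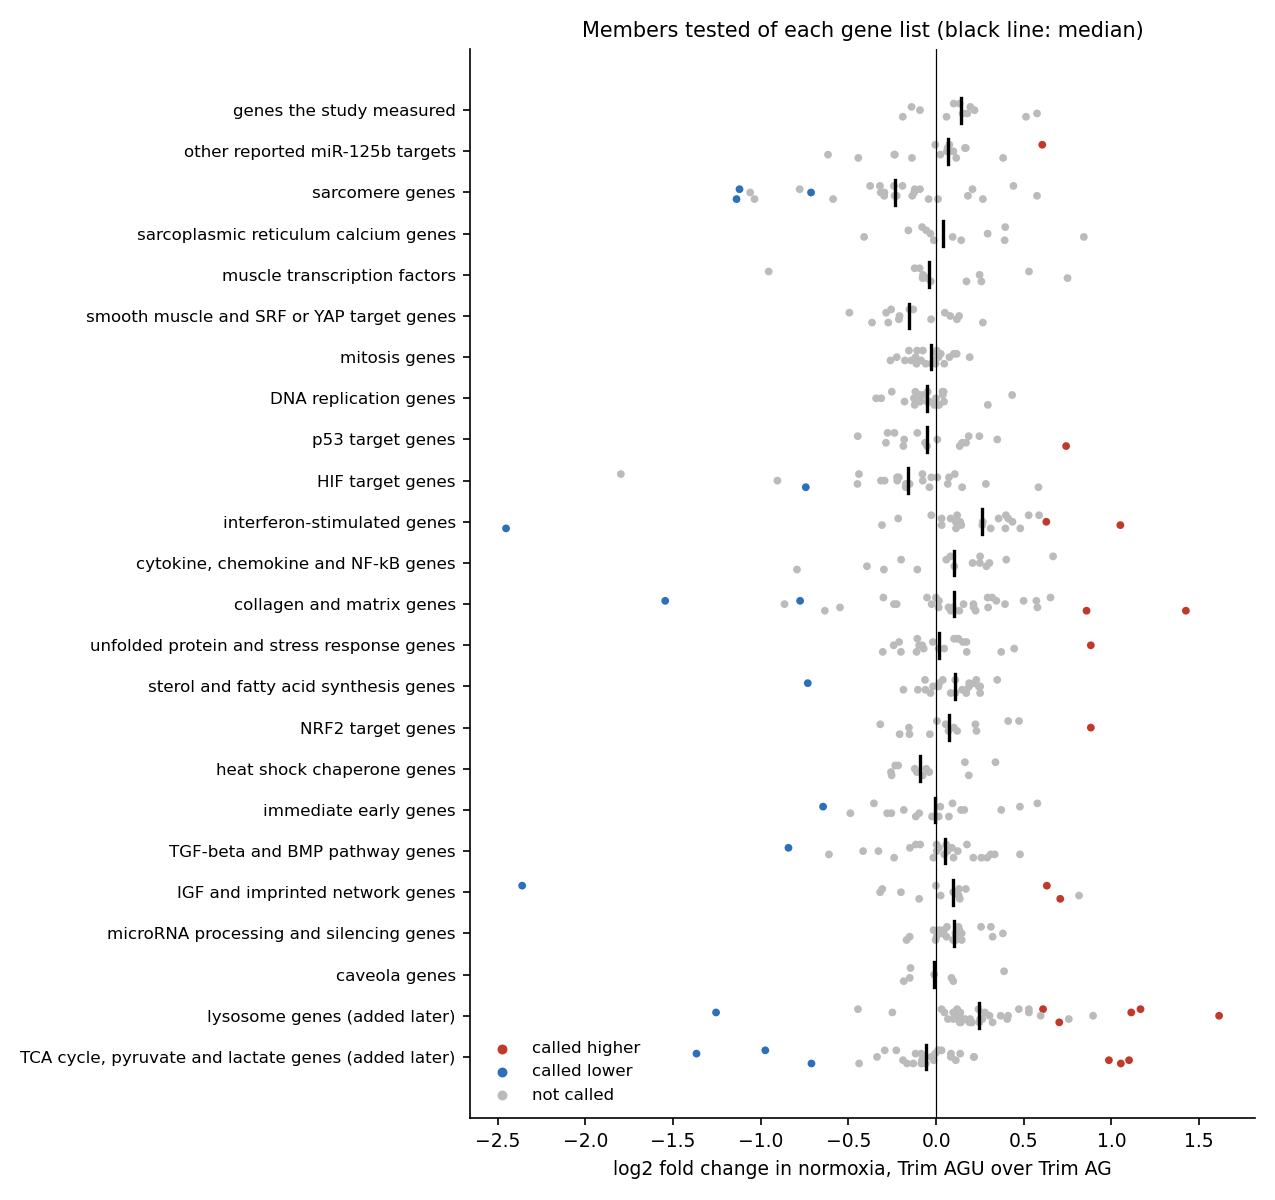
Log2 fold change of Trim AGU over Trim AG in normoxia (x axis) for each member tested of each gene list (y axis), with members called higher in red, called lower in blue and not called in grey, and the list median as a black line. The list medians lie between -0.24 and 0.26, and the called members number 0 to 6 per list, with 5 called higher and 1 lower among the lysosome genes.

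The number of calls depended on single libraries. Without Trim AG replicate 3, 97 genes were higher and 48 lower, without Trim AG replicate 1 these were 115 and 81, without Trim AG replicate 2 they were 200 and 103, and without Trim AGU replicate 3 they were 171 and 83. Without Trim AGU replicate 1 or 2 the counts were 253 and 164, and 196 and 209. In all, 119 of the 419 genes, 82 higher and 37 lower, were called in each of these 6 fits as well as with all libraries.

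The same pair of mimics was compared under hypoxia in 6 other libraries, to show where normoxia differs. By the paper's methods, hypoxic cells were held in low-glucose medium without serum, and normoxic cells had fresh medium under normal conditions. Effects of oxygen and of the medium therefore cannot be told apart. There 66 of 15151 genes tested (0.436%) were called, 36 higher and 30 lower. Depth was not alike there: the Trim AG libraries held 39940087 to 42672584 counts and the Trim AGU libraries 31870038 to 34048139. What this did to the hypoxia and interaction calls was not tested. One of those libraries, Hypoxia Trim AGU replicate 2, stood apart, with 16981 genes with a count against 18455 and 18663 in the other libraries of its group, and without it 429 genes (2.75%) were called. Without any 1 of the 3 Hypoxia Trim AG libraries or without Hypoxia Trim AGU replicate 3, at most 1 gene was called, and without replicate 1 the counts were 11 and 3. Of the genes called in normoxia, 40 were called in hypoxia in the same direction, which is 9.55% of the normoxia calls and 60.6% of the hypoxia calls. Without the library that stood apart this was 149 genes, 35.6% and 34.7%. Of 230 genes called higher in normoxia and tested in hypoxia, 211 had a positive log2 fold change there (median 0.70, beside 0.73 in normoxia), and of 179 called lower, 151 had a negative one (median -0.69, beside -0.84). Over all 14430 genes tested in both, 59.4% had the same sign and the log2 fold changes had a Pearson r of 0.30 and a Spearman rho of 0.31 across genes, which are not independent replicates.

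Among the genes described above, hypoxia gave calls in the same direction for Gaa (log2 fold change 2.41 ± 0.27, adjusted p = 0.0299 by edgeR), Lamp1 (1.77 ± 0.14, 0.0125), Sort1 (2.07 ± 0.19, 0.0142), Ctsd (1.27 ± 0.15, 0.0339), Pea15 (1.30 ± 0.15, 0.031) and Bgn (3.02 ± 0.30, 0.0168). It did so among the lower genes for Acta1 (-1.27 ± 0.17, 0.041), Ddah1 (-2.29 ± 0.14, 0.00588), Pawr (-1.24 ± 0.15, 0.0309), Plagl1 (-2.99 ± 0.43, 0.0421) and Idh3a (-0.94 ± 0.12, 0.0375). These calls rest on the hypoxia fit with all 6 libraries and without a block. With the replicate number as a block 3 genes were called in hypoxia, Gaa, Sort1 and Ddah1, and the other 8 lost the call. Mdh2 (1.37 ± 0.26, 0.0828), Rab14 (0.52 ± 0.26, 0.389), Xdh (0.91 ± 0.15, 0.0627) and Ldhb (-1.53 ± 0.26, 0.0627) had the same sign there and were not called. Abhd10, 8.74-fold higher in normoxia, had a log2 fold change of -0.45 ± 0.91 in hypoxia, where it was at 4.24, 6.43 and 2.25 CPM with Trim AG and 0.657, 0.690 and 7.81 CPM with Trim AGU.

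**Figure D4:**
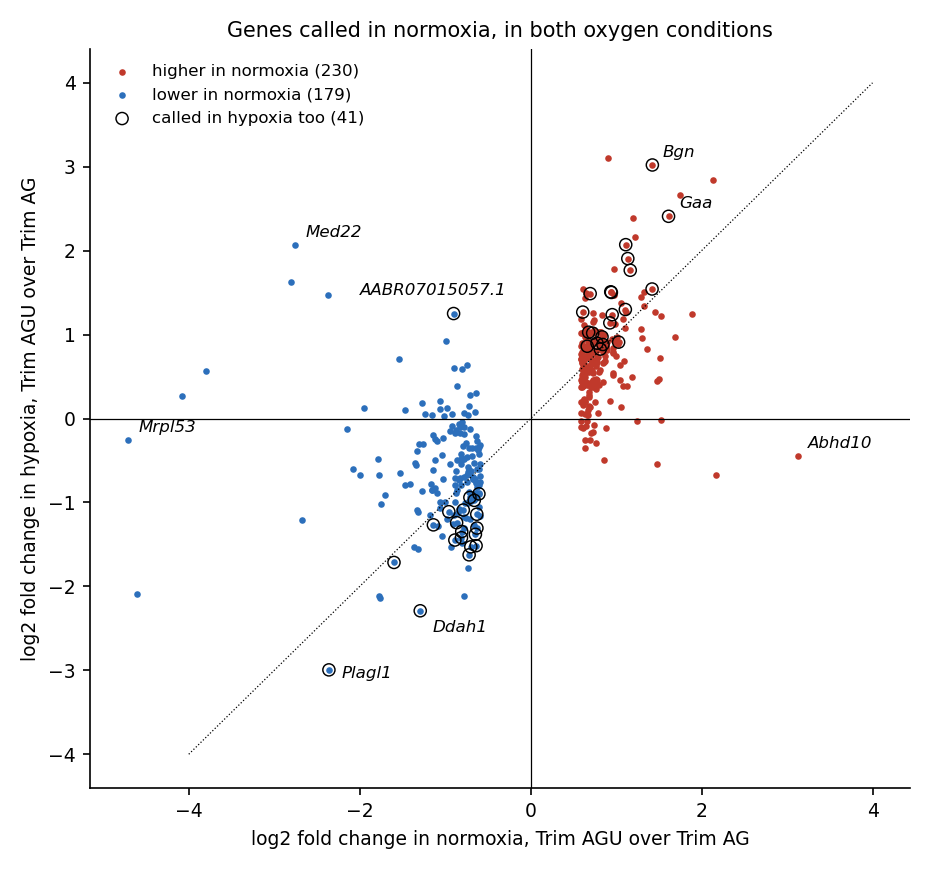
Log2 fold change of Trim AGU over Trim AG in normoxia (x axis) against that in hypoxia (y axis) for the 409 genes called in normoxia and tested in hypoxia, with the 41 called in both ringed and the line of equal change dotted. Most points lie in the quadrants of equal sign, and 1 ringed gene, AABR07015057.1, lies in an opposite one.

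Because the medium differed along with the oxygen, a difference between the conditions cannot be assigned to oxygen alone. A direct test of this difference, the interaction term over the 12 libraries in edgeR, called 3 of 15563 genes (0.0193%). None of them was more positive in normoxia, and 593 genes with a positive and 1367 with either sign of difference had an unadjusted p under 0.05, while DESeq2 called 46. The 419 genes called in normoxia were picked with libraries that also enter this test. That choice by itself raises their share of small interaction p-values. Of these genes, 78 had an unadjusted interaction p under 0.05, which is 18.6% against 8.78% of all genes tested, and 1 was called. That gene was AABR07015057.1, a protein-coding gene without a functional name (chr14:46523594-46529375), which falls outside the rule for named genes and is given because it was called. In normoxia it was at 18.3, 15.5 and 15.8 CPM with Trim AG and 8.38, 8.10 and 9.35 CPM with Trim AGU. In hypoxia it was at 27.7, 23.1 and 24.9 CPM with Trim AG and 57.5, 50.0 and 63.9 CPM with Trim AGU, so that it was lower with Trim AGU in normoxia and higher in hypoxia (difference -2.17 ± 0.16 log2, adjusted p = 0.000211 by edgeR).

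The 2 other genes did not differ by the test in normoxia. Myog, the transcription factor myogenin that drives muscle differentiation, was at 39.8, 52.4 and 41.4 CPM with Trim AG and 46.0, 57.4 and 50.9 CPM with Trim AGU in normoxia, where the groups overlapped (log2 fold change 0.25 ± 0.12, adjusted p = 0.247 by edgeR). In hypoxia it was at 11.8, 10.4 and 11.6 CPM with Trim AG and 42.0, 39.7 and 36.0 CPM with Trim AGU. The difference between the oxygen conditions was -1.65 ± 0.20 log2 (adjusted p = 0.0165 by edgeR). Krt8, an intermediate filament keratin, was at 41.4, 41.1 and 36.2 CPM and 49.7, 40.7 and 42.1 CPM in normoxia (log2 fold change 0.20 ± 0.10, adjusted p = 0.256 by edgeR). In hypoxia Krt8 was at 56.8, 48.4 and 57.4 CPM and 147, 171 and 158 CPM, a difference between the conditions of -1.45 ± 0.19 log2 (adjusted p = 0.0331 by edgeR). The call for Krt8 was lost with the replicate number as a block (adjusted p = 0.131 by edgeR) and held in 3 of 12 fits without 1 library, and that for Myog held in 7 of 12. Muscle genes near Myog in the order of p, Mylpf, a fast skeletal myosin light chain, and Tnni1, the slow skeletal troponin I, had differences of -1.48 ± 0.26 and -1.31 ± 0.26 that were not called (adjusted p = 0.182 and 0.301 by edgeR). On the positive side Ddah1 (0.98 ± 0.18, adjusted p = 0.202) and the growth factor Tgfb3 (0.91 ± 0.16, adjusted p = 0.202) were among the genes with the smallest p and were not called by edgeR. Bgn, with a normoxia log2 fold change of 1.42 and 3.02 in hypoxia, had an interaction adjusted p of 0.313 by edgeR.

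**Figure D5:**
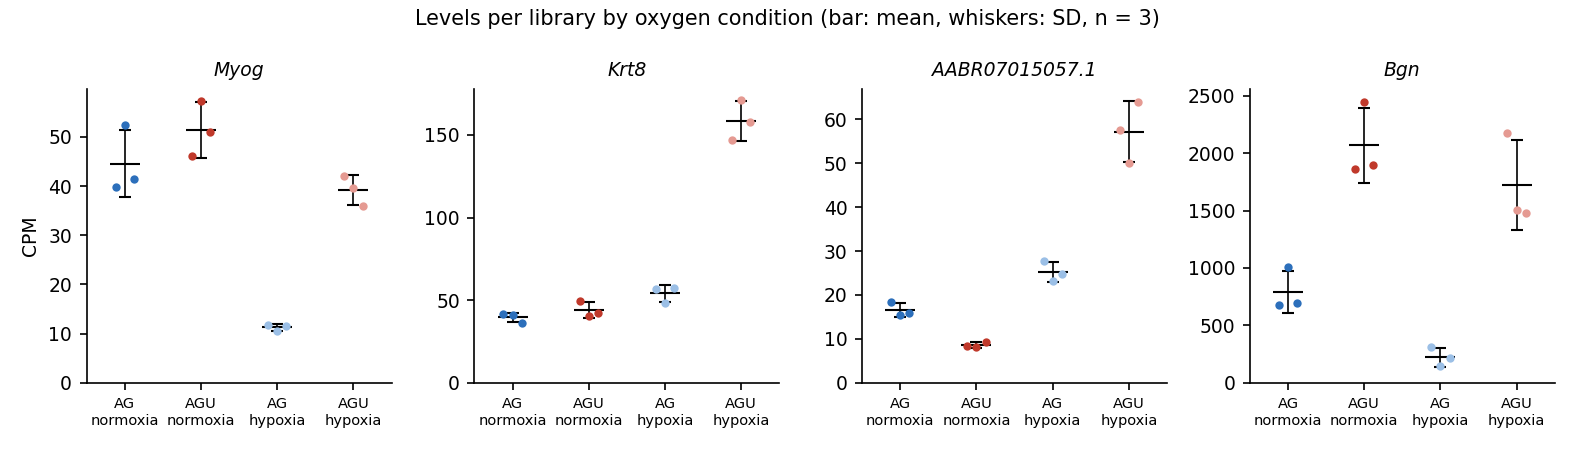
CPM (y axis, from 0) of Myog, Krt8, AABR07015057.1 and Bgn in each library of Trim AG and Trim AGU in normoxia and hypoxia (points), with the mean (bar) and SD (whiskers) of 3 libraries. Myog and Krt8 overlap or nearly meet between the mimics in normoxia and separate in hypoxia, and AABR07015057.1 is lower with Trim AGU in normoxia and higher in hypoxia.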

How the data were processed

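RNA from H9C2 cells was sequenced as non-stranded poly-A libraries, 3 per group. The submitters' processing notes name HISAT2 and StringTie, and the genome build is not given in the sources used here. The authors deposited a raw count per gene and library, the gene length, and the log2 fold change and p-values of their own DESeq2 comparisons, which were not used. The 2 groups compared here stand in separate tables, which were joined on the gene identifier, with a gene absent from a table set to 0. In all, 802 genes were listed for Trim AG alone, with at most 15 counts, and 472 for Trim AGU alone, with at most 30. Without strand, counts of overlapping genes, antisense genes and near-identical copies are uncertain.

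Counts were tested with edgeR 4.0.16 (filterByExpr, TMM, quasi-likelihood test, Benjamini-Hochberg adjustment over all genes tested), and a gene was called at an adjusted p below 0.05 and at least 1.5-fold. Fold changes use TMM scaling, and CPM are counts over the library total. The biological coefficient of variation was 0.129 in normoxia and 0.264 in hypoxia. Trim AGU against Trim AG was fitted on 6 libraries in each oxygen condition and as an interaction on 12. Scripts were tested on simulated data. Alternatives were DESeq2 1.42.0 and its size factors, 2 other filters, a block for the replicate number, fits over every library used of an oxygen condition, other fold thresholds, and leaving out each library.

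Named genes are, per direction, the 10 largest called folds (named, at least 1 CPM, no overlap) and the 5 smallest p-values (at least 10 CPM), up to 4 members per gene list with the smallest p, the genes the study measured, and 5 interaction genes per direction. The comparison, the gene lists and the rule were chosen with earlier results of these data known, and 2 lists (lysosome, TCA cycle) were added after values were seen. Some members of these lists are counted with their list and not reported here by name.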

Additional observations from a re-analysis of the deposited data

Results flagged for a closer look

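The difference between Trim AGU and Trim AG in normoxia was itself different from that in hypoxia for 3 genes, by the interaction test in edgeR. AABR07015057.1 had a difference of -2.17 log2 between the conditions, Myog of -1.65 and Krt8 of -1.45. With 1 of the 12 libraries left out in turn, AABR07015057.1 was called in 12 of 12 fits, Myog in 7 and Krt8 in 3. The highest adjusted p in those fits was 0.00345, 0.103 and 0.165. With the replicate number as a block the adjusted p was 0.0205 for AABR07015057.1, 0.0338 for Myog and 0.131 for Krt8, and by DESeq2 it was 2.62e-26, 7.41e-10 and 1.64e-07.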

How the results depend on the processing

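In normoxia, DESeq2, its size factors in edgeR, both other filters, all normoxia libraries in 1 fit and the replicate block kept the numbers of higher and lower genes within 1.5 times of the main counts. Fold thresholds changed them: 44 higher and 70 lower at 2-fold, 751 and 411 without a threshold. Leaving out 1 library gave 97 to 253 higher and 48 to 209 lower. Of the 43 named genes called, 20 stayed called at 1.5-fold in every alternative fit (14 of them at least 2-fold), 23 lost the call without at least 1 library, and 0 changed sign. Outside the 2 added lists, counts of called list members fell to 2 higher and 4 lower without Trim AG replicate 3, from 9 and 11.

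In hypoxia, DESeq2 called 330 higher and 198 lower, all hypoxia libraries in 1 fit 782 and 591, and the replicate block 2 and 1. Leaving out 1 library gave 0 to 268 higher and 0 to 161 lower. For the interaction, DESeq2 called 23 positive and 23 negative, all libraries in 1 fit 92 and 119, and the block 5 negative, with 0 to 1 and 1 to 5 when 1 library was left out. The cause of these shifts was not tested.

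Same-numbered normoxia libraries had deviations that correlated at r = 0.063 to 0.117, which is low, although each library correlated best with its own number. In hypoxia r was 0.263, 0.171 and 0.0489 for libraries of the same number, against at most 0.0198 for other numbers. These values do not settle whether same-numbered libraries are paired, so the hypoxia calls made without a block may ignore a pairing. With the replicate block, 251 genes were higher and 228 lower in normoxia, and 403 of the 419 calls remained. Across genes, log2 fold changes had a Spearman rho of 0.145 with gene length, and genes under 10 CPM were called at 3.37% against 2.51% above.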

Other observations

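The 9 called genes below fall outside the rule for named genes and were picked singly after their values were seen, so they make up no theme. The fixed cytokine, chemokine and NF-kB list had 0 of 15 called by edgeR (7 at an unadjusted p under 0.05, 0 by DESeq2). Il6st, the receptor subunit shared by cytokines of the IL-6 family, was at 122, 143 and 129.6 CPM with Trim AG and 184, 225 and 225 CPM with Trim AGU (log2 fold change 0.73 ± 0.09, adjusted p = 0.00435 by edgeR). Its partner Lifr, the receptor of leukaemia inhibitory factor, was at 10.4, 11.0 and 13.0 CPM and 16.5, 20.3 and 20.8 CPM (0.79 ± 0.12, adjusted p = 0.00863 by edgeR), and the kinase Jak3 at 26.9, 31.2 and 27.3 CPM and 53.8, 47.6 and 57.6 CPM (0.94 ± 0.10, adjusted p = 0.00157 by edgeR). All 3 were higher with Trim AGU without overlap. Nr3c1, the glucocorticoid receptor, was at 34.9, 38.4 and 33.9 CPM and 53.8, 68.0 and 53.8 CPM (0.75 ± 0.10, adjusted p = 0.00549 by edgeR), while Tsc22d3, a glucocorticoid-induced leucine zipper protein, was lower with Trim AGU, at 92.4, 83.8 and 91.8 CPM and 52.4, 48.5 and 48.0 CPM (-0.81 ± 0.07, adjusted p = 0.0011 by edgeR).

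The vasoconstrictor peptide gene Edn1 was at 23.5, 23.9 and 24.5 CPM with Trim AG and 13.8, 11.3 and 12.8 CPM with Trim AGU (-0.88 ± 0.09, adjusted p = 0.00201 by edgeR), and the prostaglandin synthase Ptgs2 at 122, 129 and 124 CPM and 69.3, 86.8 and 66.8 CPM (-0.71 ± 0.10, adjusted p = 0.0059 by edgeR). Both were lower with Trim AGU. Tfam, which packages and transcribes mitochondrial DNA, was at 33.3, 30.2 and 31.3 CPM and 20.4, 20.1 and 18.6 CPM (-0.64 ± 0.08, adjusted p = 0.00375 by edgeR). Actb, the cytoplasmic beta-actin, was the reference gene of the paper's RT-qPCR for mRNA. It was higher with Trim AGU, at 2601, 2829.8 and 2477 CPM and 4070.2, 5189 and 3927 CPM (0.78 ± 0.11, adjusted p = 0.00547 by edgeR), also with DESeq2 size factors. Any effect on the RT-qPCR values was not tested. The calls of all 9 genes held without any 1 library.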
